A study of Homo sapiens with 2 samples.

Results

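Genes of the short arm of chromosome 20 (20p) were compared between subclones of HMC1, an established human cell line derived from mast cell leukaemia. A list of 46 genes of 20p was examined, each represented by the probe set with the highest mean log2 intensity over both arrays among the probe sets annotated to that gene alone. Such a probe set existed for 44 of the 46 genes, out of 19775 genes measured in all and 207 measured on 20p. NOP56 and SDCBP2 had only probe sets shared with other annotated genes. The list was drawn up with the differences between these arrays known, so the differences below are descriptions and none of them is a test.

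HMC1 cells had been sorted by flow cytometry with an antibody against CD2, an adhesion receptor, into a CD2-positive subclone (CD2+ cells) and a CD2-negative subclone (CD2- cells). Total RNA of each was hybridised to 1 Affymetrix U133 Plus 2.0 array. Neither a treatment nor a genetic change is named for either subclone, and each is represented by 1 RNA sample of 1 sorted population. There was therefore no estimate of the spread between cultures, no p-value was computed, and a difference specific to CD2 cannot be told apart from any other difference between these cell populations. Having only 2 arrays bounds how precise any value can be.

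A chromosome arm carries genes that share no common function but lie side by side on 1 DNA molecule. In cell lines, neighbouring genes share their number of DNA copies, and they can share a chromatin domain and a time of replication. The genes of 20p listed here are mostly of the housekeeping kind, with products in splicing, ubiquitin transfer, mitochondria, lipid synthesis and membrane traffic, beside a few receptors of blood cells. DNA copy number, chromatin and replication were not measured, and their part in the differences was not tested.

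Both arrays had a median intensity of 4 over 54675 probe sets. The 27 control probe sets that match Bacillus RNA, absent from human cells, read 1 to 4, and values in that range are background here. CD2 read 219 in CD2+ cells and 13 in CD2- cells, an order that follows the labels. Of 8 mast cell markers 7 were measured, all at 80 or more on both arrays and all higher in CD2+ cells, by 0.05 (KIT) to 2.56 (CPA3) on the log2 scale. CPA3, HPGDS and MITF read 1220, 187 and 276 in CD2+ cells and 207, 80 and 154 in CD2- cells. KIT, TPSAB1, HDC and GATA2 read 1373, 4806, 1715 and 181 in CD2+ cells and 1328, 3142, 1219 and 164 in CD2- cells. Of 18 measured marker genes of T cells, B cells, monocytes, neutrophils and erythroid cells, 16 read 7 or less on both arrays, and the exceptions were the erythroid genes HBB (17 in CD2+ and 28 in CD2- cells) and EPOR (63 in CD2+ and 52 in CD2- cells). These differences had opposite signs, so the equal sum of the erythroid markers, 84 in each subclone, does not show that they were alike. The summed intensity of the T cell markers 16 in each, that of the B cell markers 13 in each, that of the neutrophil markers 13 in each, and that of the monocyte markers 7 in CD2+ cells and 8 in CD2- cells. The spiked hybridisation controls were lower in CD2+ cells in all 18 probe sets (median -0.18 on the log2 scale), and centring on them puts the median of all genes that read 64 or more on an array at 0.14, against -0.05 without it.

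Several of the listed genes start head to head with a neighbour, so that a single short stretch of DNA serves as the start region of both. These regions are shown because they let genes that share 1 start region be read side by side. The sequences are RefSeq promoter windows of build GRCh38.p14, from 250 bases before to 50 bases after an annotated start, and capitals mark the bases that also lie in the window of the opposite-strand neighbour. The windows are those of TRMT6 (minus strand, chr20:5950484-5950783, sharing 218 bases with MCM8), CDS2 (plus strand, chr20:5126758-5127057, sharing 115 bases with PCNA), CENPB (minus strand, chr20:3786691-3786990, sharing 290 bases with CDC25B), VPS16 (plus strand, chr20:2840495-2840794, sharing 189 bases with PCED1A) and ESF1 (minus strand, chr20:13784870-13785169, sharing 208 bases with NDUFAF5).
TRMT6: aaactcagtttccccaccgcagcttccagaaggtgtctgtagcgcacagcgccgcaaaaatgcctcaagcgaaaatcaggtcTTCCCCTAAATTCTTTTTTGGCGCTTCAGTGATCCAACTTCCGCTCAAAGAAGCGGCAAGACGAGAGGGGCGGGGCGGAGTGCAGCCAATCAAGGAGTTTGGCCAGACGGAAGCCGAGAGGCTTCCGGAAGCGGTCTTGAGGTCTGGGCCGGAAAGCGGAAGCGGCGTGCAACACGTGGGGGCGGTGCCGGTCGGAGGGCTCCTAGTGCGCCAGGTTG
CDS2: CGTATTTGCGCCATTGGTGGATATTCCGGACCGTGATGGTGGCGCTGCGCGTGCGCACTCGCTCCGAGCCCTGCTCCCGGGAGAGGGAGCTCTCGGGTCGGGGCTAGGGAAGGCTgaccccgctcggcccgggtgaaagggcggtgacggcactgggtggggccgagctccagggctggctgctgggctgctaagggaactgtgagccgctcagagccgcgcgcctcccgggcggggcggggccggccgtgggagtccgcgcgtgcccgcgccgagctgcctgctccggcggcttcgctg
CENPB: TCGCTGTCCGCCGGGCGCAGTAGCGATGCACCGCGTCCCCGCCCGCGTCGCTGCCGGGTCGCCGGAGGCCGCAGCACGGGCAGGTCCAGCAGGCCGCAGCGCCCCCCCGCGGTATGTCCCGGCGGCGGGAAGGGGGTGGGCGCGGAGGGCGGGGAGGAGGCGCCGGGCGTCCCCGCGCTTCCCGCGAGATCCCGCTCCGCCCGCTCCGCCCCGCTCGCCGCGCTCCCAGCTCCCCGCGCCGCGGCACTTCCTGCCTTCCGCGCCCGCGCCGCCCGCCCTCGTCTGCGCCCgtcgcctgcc
VPS16: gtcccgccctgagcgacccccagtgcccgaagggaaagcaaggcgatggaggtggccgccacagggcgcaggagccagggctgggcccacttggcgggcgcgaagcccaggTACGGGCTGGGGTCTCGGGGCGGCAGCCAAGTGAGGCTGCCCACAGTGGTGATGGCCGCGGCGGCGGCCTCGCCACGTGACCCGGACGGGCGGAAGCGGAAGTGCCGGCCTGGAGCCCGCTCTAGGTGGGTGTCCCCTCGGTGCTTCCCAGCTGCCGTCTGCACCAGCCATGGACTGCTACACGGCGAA
ESF1: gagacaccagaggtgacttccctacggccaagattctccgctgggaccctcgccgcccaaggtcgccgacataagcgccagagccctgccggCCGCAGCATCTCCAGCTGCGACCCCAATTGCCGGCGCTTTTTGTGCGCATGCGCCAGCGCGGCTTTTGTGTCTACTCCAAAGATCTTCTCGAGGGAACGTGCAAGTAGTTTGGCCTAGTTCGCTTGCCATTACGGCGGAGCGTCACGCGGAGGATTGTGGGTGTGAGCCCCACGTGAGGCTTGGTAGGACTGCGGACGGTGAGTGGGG

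Most of the listed genes read lower in the CD2-positive subclone, each by less than 2-fold at its brightest probe set. Of the 44 genes with a probe set of their own, 35 had a log2 difference below 0, 8 above 0 and 1 at 0, and the median was -0.41. Of all 19775 genes with no filter on level, 33.7% lay below 0, 7207 were at exactly 0 after rounding, and the median was 0. In bulk RNA, fewer cells that express a gene and less of its RNA per cell cannot be told apart. Differences throughout are log2 intensity in the CD2-positive minus the CD2-negative subclone. An intensity of 64 on the higher array, a log2 value of 6, was taken as the floor for comparison, and 19 of the 44 genes reached it. Of these 19, 16 lay below 0, against a background of 55.7% of all 3564 genes at the floor, and 12 were lower by at least 0.32 on the log2 scale, against 16.3%. At least 1.5-fold lower were 6, against 3.76%, and at least 2-fold lower were 0, against 0.758%. RASSF2 was the 1 gene of the 19 that was higher by at least 0.32, against 12% of all genes, and also the 1 gene at least 1.5-fold higher, against 4.24%. At least 2-fold higher were 0, against 1.21%. The list was chosen on this contrast, and nothing is read from these shares.

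The median of the 19 genes was -0.45, against -0.05 over all genes at the floor, a gap of -0.41. Of the 19, 13 reached the floor on both arrays and 6 on the CD2-negative array only (RBCK1, IDH3B, DDRGK1, ITPA, PANK2 and TRMT6). Those 6 could pass only by reading lower in the CD2-positive subclone. A floor on the mean of both arrays, at log2 5, does not favour either side. It kept 29 of the listed genes, of which 24 lay below 0 (53.5% of all 5634 genes that it kept), 17 were lower by at least 0.32 (15.3%) and 10 were at least 1.5-fold lower (3.39%). The median of these 29 was -0.45.

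**Figure D1:**
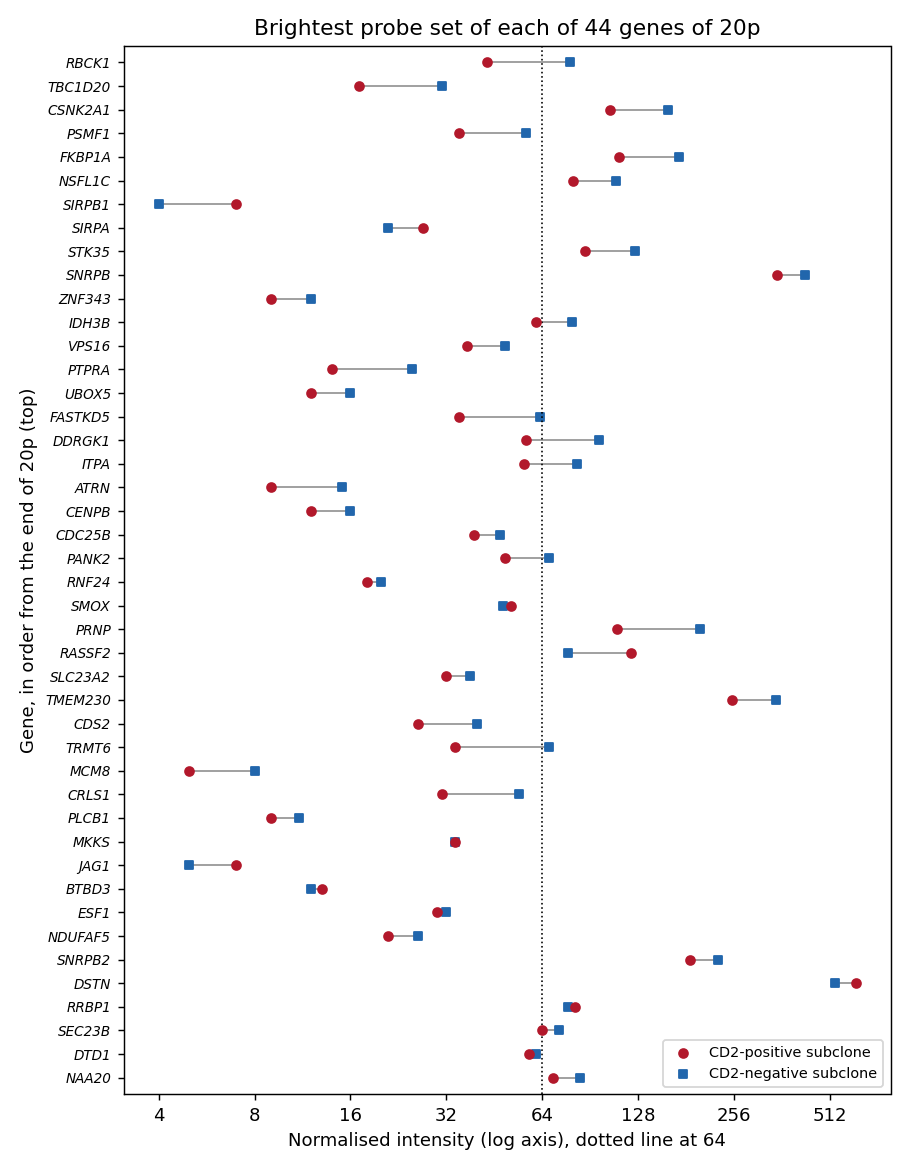
Normalised intensity (log axis) of the brightest probe set of each of 44 genes of 20p, in gene order from the end of the arm at the top, with circles for the CD2-positive and squares for the CD2-negative subclone (1 array each). From RBCK1 to CRLS1 the circle lies left of the square in 28 of 32 genes, whereas both lie close together from MKKS on for most genes. The dotted line marks the floor of 64.

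Along the arm the lower genes were not spread evenly. The 32 measured genes of the list from RBCK1, near the end of the arm, to CRLS1 had a median of -0.49, and 28 of them lay below 0. The 12 genes from PLCB1 to NAA20, closer to the centromere, had a median of -0.08, with 7 below 0, 4 above and 1 at 0. At the brightest probe set, none of these 12 was lower by at least 0.32, whereas 24 of the 32 were, against 14.9% of all genes with no filter on level. Dimmer probe sets of the 12 did reach that size, with -0.68 for NDUFAF5, -0.58 for PLCB1 and -0.49 for SEC23B. Over all 35 probe sets of the 12 genes, 15 lay below 0, 8 above and 12 at 0. The boundary after CRLS1 was set after the values were seen, so the contrast between both stretches is a description.

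Among genes at the floor, 14 of the list lay between RBCK1 and CRLS1, with a median of -0.54 and a range from -0.98 for TRMT6 to 0.65 for RASSF2. The 5 beyond CRLS1 had a median of -0.17 and ranged from -0.29 to 0.21. Of the 14, 6 (TRMT6 among them) reached the floor on the CD2-negative array only, so they passed by reading lower in CD2+ cells. None of the 5 did so. With the floor on the mean of both arrays, the medians were -0.54 over 22 listed genes up to CRLS1 and -0.07 over 7 beyond it. Genes of 20p outside the list gave 3 further values at the floor before CRLS1, all below 0. The stress-induced pseudokinase gene TRIB3 read 83 in CD2+ cells and 126 in CD2- cells. SRXN1, for sulfiredoxin, which repairs oxidised peroxiredoxins, read 189 in CD2+ cells and 234 in CD2- cells. PCNA, for the sliding clamp of DNA replication, read 446 in CD2+ cells and 679 in CD2- cells, a difference of -0.61. With no filter on level, the 63 genes of that stretch outside the list had a median of 0, with 24 (38.1%) below 0, 6 above and 33 at 0. Of all 19775 genes, 33.7% lay below 0, a share near that of the 63, with 5902 above and 7207 at 0.

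Beyond CRLS1, 10 genes outside the list reached the floor, with a median of 0.07. The first of them in gene order was TMX4, a thioredoxin-related membrane protein gene, at 70 in CD2+ cells and 62 in CD2- cells. SLC24A3, for a potassium-dependent sodium/calcium exchanger, was the only one at least 1.5-fold different, at 240 in CD2+ cells and 152 in CD2- cells, which is higher. CST3, for cystatin C, read 213 in CD2+ cells and 156 in CD2- cells. The 67 genes of the long arm (20q) at the floor had a median of -0.02, with 36 below 0 and 29 above.

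Running medians of 7 neighbouring genes were taken over chromosome 20 genes with a mean log2 of at least 5. Up to CRLS1 these were 22 listed genes, chosen on this contrast, and 5 others. The split at CRLS1 was also set after the values were seen. Low medians there are thus a description and no separate support. The 21 windows that lay wholly at or before CRLS1 had medians from -0.61 to -0.27. The 125 windows wholly beyond CRLS1, through the end of 20q, ranged from -0.29 to 0.27. The ranges overlapped narrowly, since the lowest window of 20q, at -0.29, lay below the highest window of the terminal stretch, at -0.27.

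**Figure D2:**
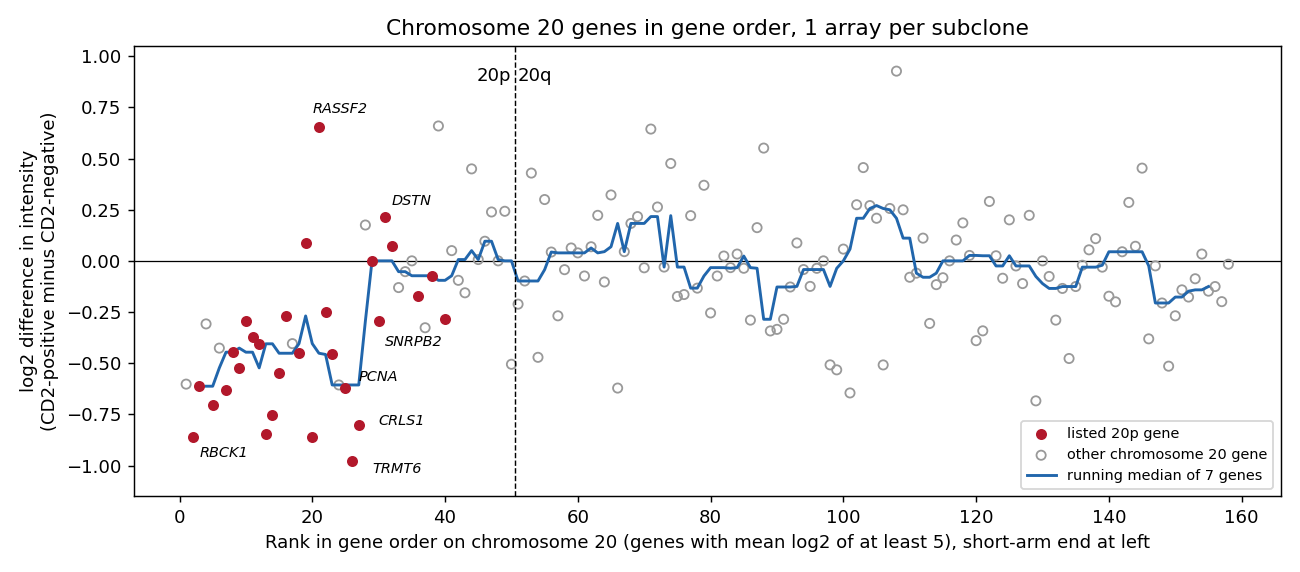
Log2 difference in intensity (CD2-positive minus CD2-negative) against rank in gene order for chromosome 20 genes with a mean log2 of at least 5, with listed genes filled, other genes open and the running median of 7 genes as a line. The line stays between -0.61 and -0.27 over the terminal genes and returns to near 0 within 20p, well before the dashed line that marks the end of the arm. Most of the terminal genes are listed ones, chosen on this contrast.

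**Figure D3:**
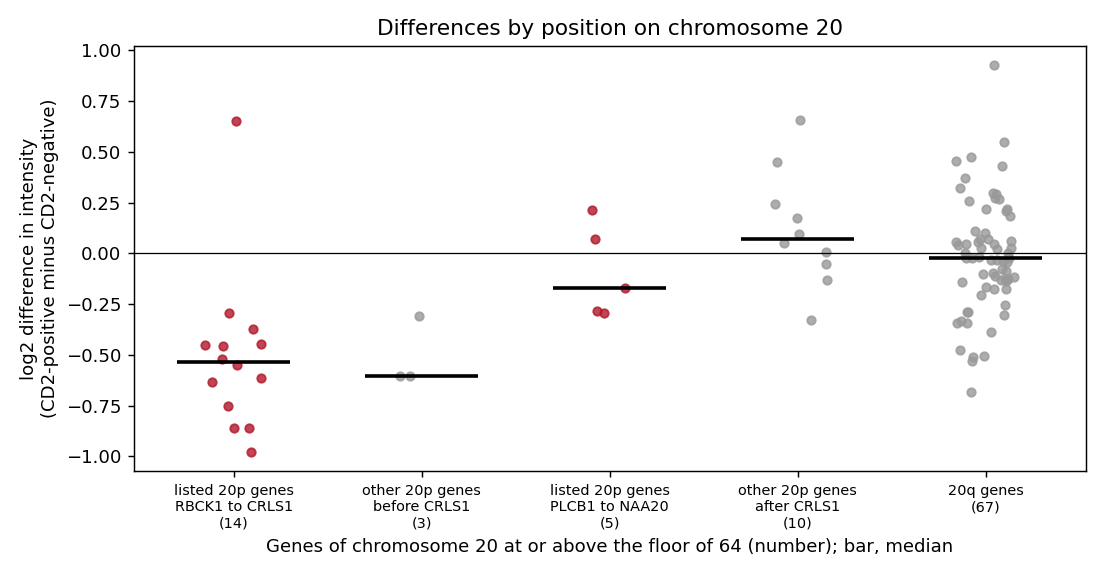
Log2 differences of single chromosome 20 genes at or above the floor of 64, split at CRLS1 and by arm, with bars at the medians. The 14 listed genes up to CRLS1 have a median of -0.54 and the 3 other genes of that stretch -0.60, against -0.17, 0.07 and -0.02 for the 5 listed and 10 other genes beyond it and the 67 genes of 20q. Of the 14, 6 reached the floor on the CD2-negative array only.

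Medians of whole chromosomes at the same floor ran from -0.33 for the X chromosome (157 genes) and -0.25 for chromosome 18 (61 genes) to 0.04 for chromosome 16 (144 genes). Chromosome 20 as a whole stood at -0.05 over 99 genes, and 20p alone at -0.30 over 32 genes. Of those 32, the 19 listed genes, chosen on this contrast, had a median of -0.45 and the 13 others 0.01. The other chromosomes were not split by arm, so 20p has no like value beside it. No test of the difference between 20p and other chromosomes was possible with 1 array per subclone.

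Counts by role are descriptions of a list chosen on these differences, and stand beside 33.7% of all genes below 0 with no filter on level and 55.7% at the floor. The 6 genes of ubiquitin transfer and protein turnover all lay below 0, and 3 of them reached the floor. RBCK1, for the HOIL-1 subunit of the ligase that builds linear ubiquitin chains, read 43 in CD2+ cells and 78 in CD2- cells, 1.81-fold lower, and its other probe sets read 17 and 4 in CD2+ cells and 27 and 6 in CD2- cells. PSMF1, for the proteasome regulator PI31, read 35 in CD2+ cells and 57 in CD2- cells, below the floor, with a second probe set at 36 in CD2+ and 55 in CD2- cells. DDRGK1 anchors the ligase for the ubiquitin-like protein UFM1 at the endoplasmic reticulum, and its single probe set read 57 in CD2+ cells and 96 in CD2- cells (1.68-fold lower). NSFL1C, for p47, a cofactor of the ATPase VCP, read 80 in CD2+ cells and 109 in CD2- cells. Its 3 probe sets with a mean log2 of at least 5 gave differences from -0.63 to -0.45. The U-box ligase gene UBOX5 (12 in CD2+ and 16 in CD2- cells) and the RING finger gene RNF24 (18 in CD2+ and 20 in CD2- cells) lay far below the floor, and the other probe sets of RNF24 gave 0.08, 0.39 and 0.

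Genes of RNA processing gave 4 measured values, of which 3 reached the floor. All 4 lay below 0, against the 33.7% of all genes, or 55.7% at the floor, given above. TRMT6, for a subunit of the methyltransferase that modifies adenosines in transfer RNA, read 34 in CD2+ cells and 67 in CD2- cells, the largest fold among the brightest probe sets of the list at 1.97-fold lower. Its second probe set read 12 in CD2+ and 33 in CD2- cells. SNRPB, which encodes the SmB/B' proteins in the core of spliceosomal particles, read 349 in CD2+ cells and 428 in CD2- cells, and its probe sets gave -0.29 and -0.33. SNRPB2, for a protein of the U2 particle, lies beyond CRLS1 and read 186 in CD2+ cells and 228 in CD2- cells, also -0.29. ESF1, for a nucleolar protein, likewise beyond CRLS1, read 30 in CD2+ cells and 32 in CD2- cells. Of the probe sets that list NOP56 together with small RNA genes, 1 read 98 in CD2+ cells and 154 in CD2- cells and the other read 44 in CD2+ and 50 in CD2- cells, and their signal cannot be assigned to NOP56 alone.

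Signalling genes included the clearest exception. CSNK2A1, for a catalytic subunit of protein kinase CK2, read 104 in CD2+ cells and 159 in CD2- cells (1.53-fold lower). Its 3 probe sets with a mean log2 of at least 5 gave differences from -0.63 to -0.37. FKBP1A, for the FK506-binding protein FKBP12, read 111 in CD2+ cells and 172 in CD2- cells (1.55-fold lower), with 3 probe sets from -0.63 to -0.26. The kinase gene STK35 read 87 in CD2+ cells and 125 in CD2- cells. The receptor tyrosine phosphatase gene PTPRA (14 in CD2+ and 25 in CD2- cells), CDC25B (39 in CD2+ and 47 in CD2- cells), for a phosphatase that activates cyclin-dependent kinases, and the phospholipase gene PLCB1 (9 in CD2+ and 11 in CD2- cells) lay below the floor and below 0.

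RASSF2, which encodes a Ras-association domain protein described as a tumour suppressor, read 121 in CD2+ cells and 77 in CD2- cells. It was thus 1.57-fold higher, with a single probe set and no second value to set beside it. Among the listed genes PRNP comes before it and SLC23A2 after it. PRNP, for the prion protein, read 110 in CD2+ cells and 200 in CD2- cells (1.82-fold lower), and its probe sets gave -0.86 and -0.55. SLC23A2, for a vitamin C transporter, read 32 in CD2+ cells and 38 in CD2- cells. A gene with the opposite sign thus lay between lower ones.

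The other exceptions in the terminal stretch were SIRPA, SIRPB1 and SMOX. SIRPA, for the inhibitory receptor of CD47 on myeloid cells, read 27 in CD2+ cells and 21 in CD2- cells, and its other probe sets read 18 and 6 in CD2+ cells and 12 and 4 in CD2- cells. All 3 were higher in the CD2-positive subclone, but none reached the floor. SIRPB1, for a related activating receptor, read 7 in CD2+ cells and 4 in CD2- cells, near background. SMOX, for spermine oxidase, read 51 in CD2+ cells and 48 in CD2- cells, a difference of 0.09. Of the remaining surface genes, ATRN (attractin) read 9 in CD2+ cells and 15 in CD2- cells, and the Notch ligand gene JAG1, beyond CRLS1, read 7 in CD2+ cells and 5 in CD2- cells.

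Genes of mitochondria and metabolism lay below 0 in 8 of 9 cases, with SMOX above, against the same 33.7% of all genes, or 55.7% at the floor. Of the 9, 3 reached the floor. IDH3B, for a subunit of the NAD-dependent isocitrate dehydrogenase of the citric acid cycle, read 61 in CD2+ cells and 79 in CD2- cells. ITPA, for the enzyme that removes inosine triphosphate from the nucleotide pool, read 56 in CD2+ cells and 82 in CD2- cells. PANK2, for the mitochondrial pantothenate kinase of coenzyme A synthesis, read 49 in CD2+ cells and 67 in CD2- cells. These 3 reached the floor on the CD2-negative array only.

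Larger folds in the same group came from genes that did not reach the floor. FASTKD5, for a mitochondrial RNA processing protein, read 35 in CD2+ cells and 63 in CD2- cells, 1.80-fold lower and 1 unit short of the floor. CRLS1, for cardiolipin synthase, read 31 in CD2+ cells and 54 in CD2- cells (1.74-fold lower), with a second probe set at 18 in CD2+ and 29 in CD2- cells. CDS2, whose enzyme makes the CDP-diacylglycerol used for cardiolipin and phosphatidylinositol, read 26 in CD2+ cells and 40 in CD2- cells. Its other probe sets with values of 20 or more gave -0.32 and 0.14. NDUFAF5, a complex I assembly gene beyond CRLS1, read 21 in CD2+ cells and 26 in CD2- cells, with a second probe set at 15 in CD2+ and 24 in CD2- cells.

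Genes of membrane traffic and the cytoskeleton were mixed. TMEM230, for a vesicle membrane protein, read 252 in CD2+ cells and 346 in CD2- cells (1.37-fold lower), and its probe sets gave -0.46 and -0.41. TBC1D20, for an activator of GTP hydrolysis by Rab proteins, read 17 in CD2+ cells and 31 in CD2- cells. VPS16, for a core subunit of the tethering complexes of late endosomes, read 37 in CD2+ cells and 49 in CD2- cells. Both of these lay below the floor.

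The remaining genes of this group with a probe set of their own lie beyond CRLS1 and differed by 0.21 or less in size at their brightest probe sets. DSTN, for the actin-depolymerising protein destrin, read 615 in CD2+ cells and 531 in CD2- cells, but its second probe set read 507 in CD2+ and 531 in CD2- cells, so its probe sets had opposite signs. RRBP1, for a ribosome-binding protein of the endoplasmic reticulum, read 81 in CD2+ cells and 77 in CD2- cells. SEC23B, for a coat protein of vesicles that leave the endoplasmic reticulum, read 64 in CD2+ cells and 72 in CD2- cells, a difference of -0.17 that turns positive when centred on the hybridisation controls. MKKS, for a chaperonin-like protein, read 34 in both. SDCBP2 lies before CRLS1, between PSMF1 and FKBP1A, and the probe set that lists it with a read-through gene read 12 in CD2+ cells and 15 in CD2- cells.

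Of the genes of chromatin, protein modification and other roles, only NAA20, for the catalytic subunit of the N-terminal acetyltransferase NatB, reached the floor, at 69 in CD2+ cells and 84 in CD2- cells. CENPB, for a centromere-binding protein, read 12 in CD2+ cells and 16 in CD2- cells. MCM8, for a helicase of recombination repair, read 5 in CD2+ cells and 8 in CD2- cells, near background. The zinc finger gene ZNF343 read 9 in CD2+ cells and 12 in CD2- cells. DTD1 (58 in CD2+ and 61 in CD2- cells), for an enzyme that removes D-amino acids from transfer RNA, and BTBD3 (13 in CD2+ and 12 in CD2- cells) lie beyond CRLS1 and differed by at most 3 units.

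The 44 genes had 127 probe sets. From RBCK1 to CRLS1, 33 probe sets of 22 genes had a mean log2 of at least 5, and 31 of them lay below 0. The 2 exceptions were those of RASSF2 and SMOX. The 33 include the brightest probe set of each of the 22 genes, and the list was drawn up with these differences known. The count is thus a description. Of all genes at that level, 53.5% lay below 0, but that share takes 1 probe set per gene. No share over all probe sets was computed for the counts of probe sets given here. Over all 92 probe sets of that stretch, 60 lay below 0, 14 above and 18 at 0. From PLCB1 to NAA20, 9 probe sets of 7 genes had that level, with 6 below 0, 2 above and 1 at 0. Of the 10 listed genes with several probe sets at that level, 9 had all of them on 1 side of 0, and the exception was DSTN. Over 937 genes with several probe sets at the floor, the spread of the difference for 1 probe set was 0.13 on the log2 scale. That spread covers probe behaviour only and not variation between cultures or hybridisations.

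**Figure D4:**
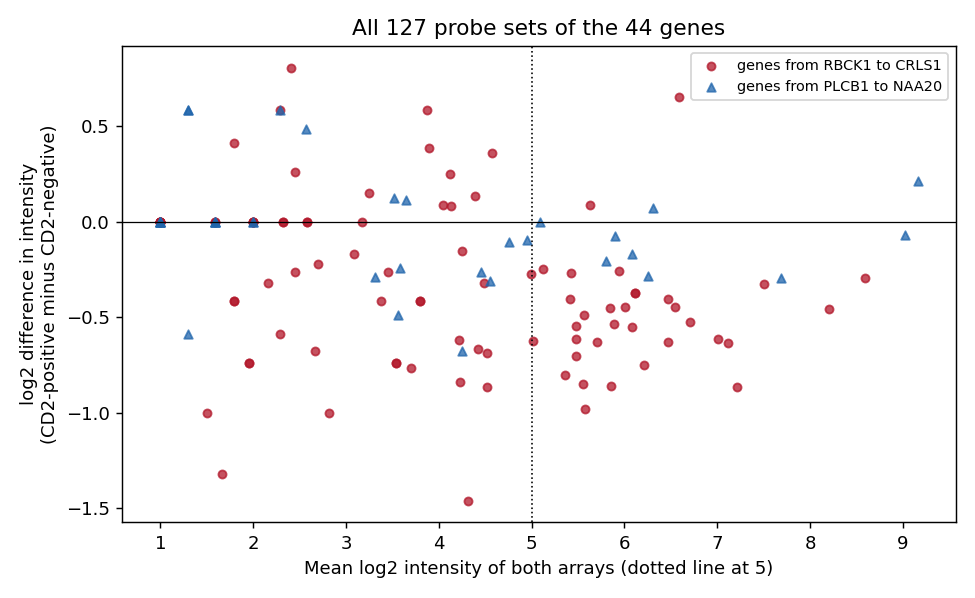
Log2 difference (CD2-positive minus CD2-negative) against mean log2 intensity for all 127 probe sets of the 44 genes, with circles for genes from RBCK1 to CRLS1 and triangles for genes from PLCB1 to NAA20. Right of the dotted line at a mean log2 of 5, 31 of 33 circles lie below 0, while triangles lie between -0.29 and 0.21, and at low levels rounding to whole units spreads the values widely.

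The head-to-head pairs whose start regions are printed above gave values for both partners. TRMT6 and MCM8 start 119 bases apart and had differences of -0.98 and -0.68, the second near background. CDS2 and PCNA start 386 bases apart and had -0.62 and -0.61. CENPB and CDC25B, 211 bases apart, had -0.42 and -0.27, and VPS16 and PCED1A, 90 bases apart, had -0.41 and -0.23. ESF1 and NDUFAF5, 109 bases apart and beyond CRLS1, had -0.09 and -0.31. Every gene of these pairs thus had a negative difference at its brightest probe set, against 33.7% of all genes with no filter on level. That share is low because 7207 genes were at exactly 0, and at a mean log2 of at least 5 it was 53.5%. Of the genes of these pairs, all but PCNA and PCED1A are listed genes, chosen on this contrast, and all but TRMT6 and PCNA lay below the floor. Among other probe sets of the listed ones, TRMT6 gave -1.46, ESF1 -0.24, NDUFAF5 -0.68 and 0, and VPS16 0. The other set of MCM8 gave 0.42, and those of CDS2 gave -0.32, 0.14, 0.26 and 0.

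RefSeq promoter windows were found for 36 of the 46 listed genes, with 55 windows among them because some genes have several annotated starts. The windows held a median of 25 CG dinucleotides per 300 bases, against 14 over all 35116 windows of the table. The motif GGGCGG, searched on both strands, was found in 60% of the listed genes' windows and in 45.0% of all windows. The motif CCGGAAG was found in 29.1% of the listed genes' windows and in 10.3% of all. CCAAT was found in 30.9% of the listed genes' windows and 34.6% of all, and TATAAA in 7.27% of the listed genes' windows and 11.5% of all. The printed TRMT6 window holds CCGGAAG within its shared bases. These matches describe the letters of the windows only.

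Several of the listed proteins work in complexes or pathways with products of genes on other chromosomes, and those partner genes give a level for related machinery away from 20p. The 20p genes were listed with their differences known, so a listed gene that lies below its partners is a description only. Of 42 measured partner genes 25 reached the floor, with a median of -0.07, 14 below 0, 9 above and 2 at 0. Of the 25, 5 were lower by at least 0.32 and 0 higher by that much, against 16.3% and 12% of all genes. The 5 were SNRPA1, SEC13, UFC1, NOP58 and IDH3G. The medians of their chromosomes were -0.02 (15, SNRPA1), -0.04 (3, SEC13), -0.18 (1, UFC1), 0.02 (2, NOP58) and -0.33 (X, IDH3G).

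The Sm proteins form a ring in spliceosomal particles with the product of SNRPB. SNRPD1 read 157 in CD2+ cells and 149 in CD2- cells, and SNRPD2 903 in CD2+ and 870 in CD2- cells. SNRPD3 read 158 in CD2+ and 150 in CD2- cells, SNRPF 149 in CD2+ and 140 in CD2- cells, and SNRPG 357 in both. These 5 lay between 0 and 0.09, against -0.29 for SNRPB. SNRPE read 355 in CD2+ cells and 443 in CD2- cells (-0.32).

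For the VCP cofactor gene NSFL1C (-0.45), VCP itself read 130 in CD2+ cells and 122 in CD2- cells. NPLOC4 and UFD1, genes of further VCP cofactors, had differences of 0.27 and 0. For DDRGK1 (-0.75), the genes of the UFM1 pathway gave 0.01 for UFM1, 0.12 for CDK5RAP3 and -0.37 for UFC1. For CSNK2A1 (-0.61), the regulatory subunit gene of the kinase, CSNK2B, read 374 in CD2+ cells and 409 in CD2- cells (-0.13). For TBC1D20 (-0.87, below the floor, with a second probe set at 6 on both arrays), RAB3GAP1, whose protein acts on a shared Rab target, gave -0.07.

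Of the IDH3B partners, IDH3G read 104 in CD2+ cells and 130 in CD2- cells (-0.32), close to IDH3B at -0.37. SNRPA1, whose protein pairs with that of SNRPB2, read 66 in CD2+ cells and 102 in CD2- cells (-0.63), while SF3A1 and SF3B1, of the same U2 particle, gave -0.17 and -0.14. NOP58, FBL and SNU13, whose products form the particle that modifies ribosomal RNA together with that of NOP56, read 252, 184 and 90 in CD2+ cells and 317, 166 and 93 in CD2- cells. The coat genes SEC13, SEC31A, SEC24B and SEC24C ranged from -0.44 to -0.22, all lower than SEC23B. The partner genes of RBCK1, TRMT6, VPS16, NAA20 and MCM8 did not reach the floor.

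**Figure D5:**
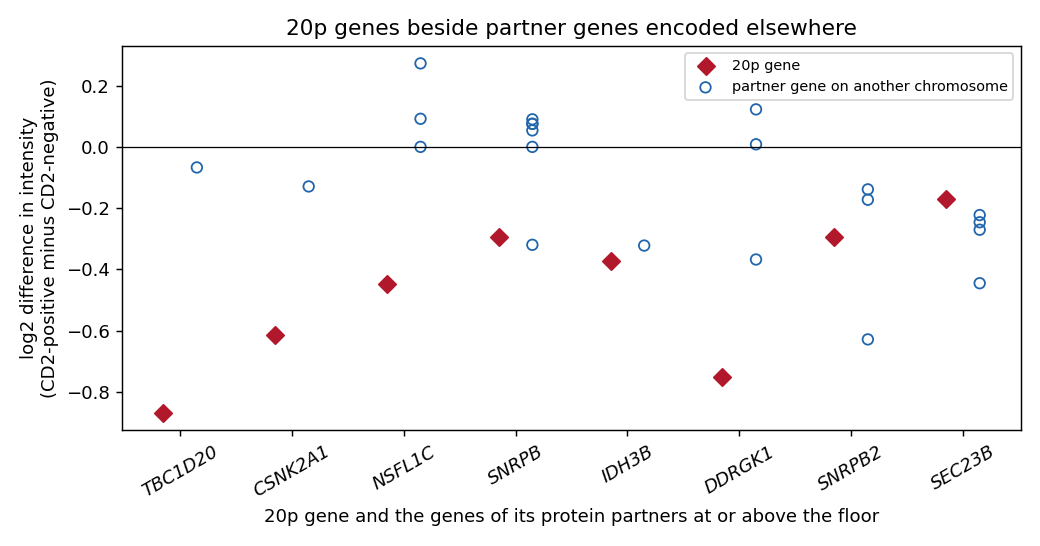
Log2 difference (CD2-positive minus CD2-negative) of 8 genes of 20p (diamonds) and of partner genes on other chromosomes at or above the floor (open circles). NSFL1C, SNRPB, DDRGK1, CSNK2A1 and TBC1D20 lie below most or all of their plotted partners, whereas the partners of SEC23B lie below SEC23B itself. The 20p genes were listed with these differences known. The floor was applied to the partners only, and TBC1D20 lies below it.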

How the data were processed

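Total RNA of 1 CD2-positive and 1 CD2-negative HMC1 sample was measured on U133 Plus 2.0 arrays. The deposited values are linear probe-set intensities that the authors had made, per the submitters' processing notes, with Affymetrix Expression Console 1.1 and its RMA method. The rounding to whole numbers was seen in the values, and the sources used here do not name the background model. RMA equalises the distributions of both arrays, which removes any difference in total signal.

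Of 54675 probe sets, the platform annotation gives 1 symbol for 41097, several for 1801 and none for 11777, and only the first were assigned to genes. Entrez identifiers matched 41043 of these to the RefSeq gene table of GRCh38.p14, which gave symbols and gene order. The files name no build, so coordinates are given for the printed RefSeq promoter windows only. The short arm was taken to end with ZNF337. Intensities were converted to log2, with 1 probe set per gene (highest mean log2) and a floor of log2 6 on the higher array. Differences of at least 0.32 (log2), 1.5-fold and 2-fold were counted. The named genes were all listed genes, other 20p genes at least 1.5-fold different and partner genes. SRXN1, TMX4 and CST3 were named after their values were seen. The members and gene lists were chosen with earlier results of these data known. With 1 array per subclone no test was run. The median of the listed genes, with the floor on the mean level, was tested on simulated data, and the other summaries were not. Alternatives were floors of log2 5, log2 7 and none, all probe sets averaged, identifiers without _s, _x or _a, centring on all probe sets or on hybridisation controls, lowess with a span of 0.3, and log2(value + 8). A floor on the mean level and inclusion of shared probe sets were chosen after seeing the data. Calculations were run in Python 3.11.15 with pandas 2.3.3, numpy 2.4.6 and statsmodels 0.14.6.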

Additional observations from a re-analysis of the deposited data

How the results depend on the processing

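The median of the listed 20p genes stayed negative under every alternative run, from -0.46 at a floor of log2 7 to -0.27 when centred on the hybridisation controls. That centring moves the median of all genes at the floor from -0.05 to 0.14, so the gap between the listed genes and all genes stays at -0.41. It also moves the medians of the other 20p genes to 0.19, of the 20q genes to 0.16 and of the partner genes to 0.12. The split of listed genes at a size of 0.32 on the log2 scale moves from 12 lower and 1 higher to 8 lower and 2 higher. Before centring, 16.3% of all genes were lower and 12% higher by that much, and these shares were not computed after it. All genes below 0 went from 55.7% to 30.8%. Counts of genes below 0 follow the number that pass each filter. They were 25 of 30 listed genes at a floor of log2 5 (53.4% of all genes) and 6 of 7 at log2 7 (55.7%). With no floor they were 35 of 44 (33.7%), with all probe sets averaged 6 of 8 (53.3%), and with plain identifiers 9 of 10 (54.3%). Lower by at least 0.32 were 24 with no floor, against 14.9% of all genes. That count was 4 at a floor of log2 7, 4 with all probe sets averaged and 7 with plain identifiers, where the share of all genes was not computed. The list was chosen on this contrast, so these counts are descriptions. The count at least 2-fold lower was 0 under all alternatives. With all probe sets averaged, TRMT6 fell below the floor and was not counted, and its second probe set alone was 2.75-fold lower. No 20p gene at the floor that differed by at least 0.32 turned its direction in the alternatives that gave it a value. Of the 32 genes of 20p at the floor, 16 had a value at a floor of log2 7, 15 with all probe sets averaged and 20 with plain identifiers, and the rest were not checked there. TRMT6 moved to -0.69 after lowess and -0.84 with log2(value + 8). With plain identifiers SNX5, a 20p gene outside the list at -0.13 by its brightest probe set, moved to 0.28 and TMX4 to 0.33. No paired analysis was possible because each subclone has 1 array and no replicate numbers. Low signal limits many of these values: 25 of 44 genes lay below the floor, where rounding to whole units makes a difference of 1 unit a large relative change.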

Other observations

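Of the 63 measured genes of the terminal stretch of 20p outside the list, 24 lay below 0, 6 above and 33 at 0. The share below 0 was 38.1%, near the 33.7% of all genes. The 4 named here are all among the 24 and below the floor. MRPS26, for a protein of the mitochondrial ribosome, read 9 in CD2+ cells and 21 in CD2- cells. GPCPD1, for a glycerophosphocholine phosphodiesterase, read 17 in CD2+ cells and 28 in CD2- cells, and MAVS, the mitochondrial adaptor of antiviral signalling, read 34 in CD2+ cells and 45 in CD2- cells. SNPH, for syntaphilin, read 32 in CD2+ cells and 43 in CD2- cells. These genes were chosen after their values were seen. Close to the centromere, ZNF337, the last gene of the arm as taken here, read 31 in CD2+ cells and 44 in CD2- cells, while its near neighbour GINS1, for a DNA replication protein, read 26 in CD2+ cells and 21 in CD2- cells.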
